A study of Mus musculus with 4 samples.

Results

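Colony-stimulating factors are secreted proteins that keep cells of the myeloid lineage alive and let them divide and mature. The 8 genes described here are the ligands *Csf1*, *Il34*, *Csf2* and *Csf3* and the receptor genes *Csf1r*, *Csf2ra*, *Csf2rb* and *Csf3r*, taken by gene name out of the 29676 gene names on the array. They are read by 14 probes, and all probes of each gene are given. CSF1 and IL34 share a receptor, CSF1R, a tyrosine kinase on which microglia depend, and astrocytes are a known source of CSF1 in the brain. CSF2 acts through an alpha chain, CSF2RA, and a beta chain, CSF2RB, that receptors of related cytokines also use, while CSF3 acts through CSF3R on neutrophils and their precursors.

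RNA came from astrocyte-enriched cultures (AECs) of ICR mice, either untreated (n = 2) or exposed to oxygen-glucose deprivation (OGD) for 15 h (n = 2). All 4 cultures started as mixed glia from the cortex of newborn pups, and by the paper the wells held independent cultures from different pups. In all 4 cultures microglia had been depleted with pexidartinib (PLX3397), which inhibits the receptor encoded by *Csf1r*. A group without the inhibitor was not analysed here, so every level below is that of cultures treated with it. Each RNA was labeled with Cy3 and hybridized to its own array, and all arrays lay on 1 slide read in 1 scan.

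Spots marked as well above background made up 73.0% to 73.7% of an untreated array and 64.5% to 66.2% of an OGD array, and 0 spots were saturated. The processed signal, an intensity with background subtracted, had a 75th percentile between 2135 and 2164 in untreated AECs and between 776 and 887 under OGD. A log2 fold change below is the mean of the OGD arrays minus that of the untreated arrays after each array's own 75th percentile was subtracted. On that scale the median of all tested probes was 0.18. Scaling on spiked-in control RNA in place of the percentile moved every probe by −1.29, and the median of all probes was then −1.11, so a direction is given on both scales where they differ. The 15 astrocyte markers were all well above background on every array. By limma 8 of them were higher, 2 lower and 5 neither, where 37.9% of all probes were higher and 27.1% lower, and on the spike-in scale 0 were higher and 11 lower, where 4.47% and 81.9% of all probes were. With bulk RNA, fewer cells of a type and less RNA per cell cannot be told apart.

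The probe sequences that the results turn on are shown here, 30 bases of each, 5′ to 3′, as the array design gives them. The pair from *Csf1* whose changes relative to the 75th percentile were opposite (on the spike-in scale −0.049 and −2.60) comes first, with the last bases of each probe, and the capitals mark ATTAAA, a known variant of the polyadenylation signal. That hexamer was found in 4.56% of all probes, searched in the printed direction only.
*Csf1* A_51_P195506: actatttccatgctagaaaatacatatttt
*Csf1* A_55_P2169669: cttgtagtctATTAAAaaccccagttctat
Another *Csf1* probe overlaps the latter by 31 bases, and its last bases lie in that overlap.
*Csf1* A_55_P2017914: agctgcatcatatattgtcatatgttgagc
The first bases of the *Csf2* probe, the member with the largest log2 fold change, were the following.
*Csf2* A_51_P171075: tctgaaaacgctgactcagcttggacagcg
The last bases of the *Csf3r* probe are shown because a probe of another gene name, TC1653005, holds all 30 of them. The capitals mark a run of 15 bases that is found in 4 probes of other gene names.
*Csf3r* A_55_P2070352: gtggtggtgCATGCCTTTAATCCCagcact

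Of the 8 genes, 7 had a brightest probe that could be tested, and 2 of them (*Csf2* and *Csf1r*) were higher and 3 (*Csf1*, *Il34* and *Csf2ra*) lower after OGD at a limma adjusted p under 0.05. The same limit was passed by 65% of all 28258 probes tested, 37.9% higher and 27.1% lower, so the number of members called was not far from that of other probes. With the 10-fold limit of the methods added, 1 member (*Csf2*) passed by its fitted value, against 0.81% of all probes that were higher by that rule and 0.524% that were lower. Since *Csf2* was below background in untreated AECs, its fold could only be bounded, as described below. The bound was 7.65-fold relative to the percentile and 3.13-fold on the spike-in scale, and neither reaches that limit. On the spike-in scale, 1 member was called higher and 5 lower, against 4.47% and 81.9% of all probes. With the mean over a gene's probes in place of the brightest, 3 members were called higher and 2 lower, and *Csf1* was called higher (0.40, adjusted p = 0.0162). The median log2 fold change of the 7 genes was −0.024, against 0.18 over all probes. By probe, 12 of 14 were tested, of which 4 were called higher, 3 lower and 5 neither. The values of the untreated and the OGD arrays did not overlap for 10 of the 12 probes, as for 84.6% of all tested probes. The remaining probes, 1 each of *Csf3* and *Csf1*, were not well above background on any array.

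**Figure D1:**
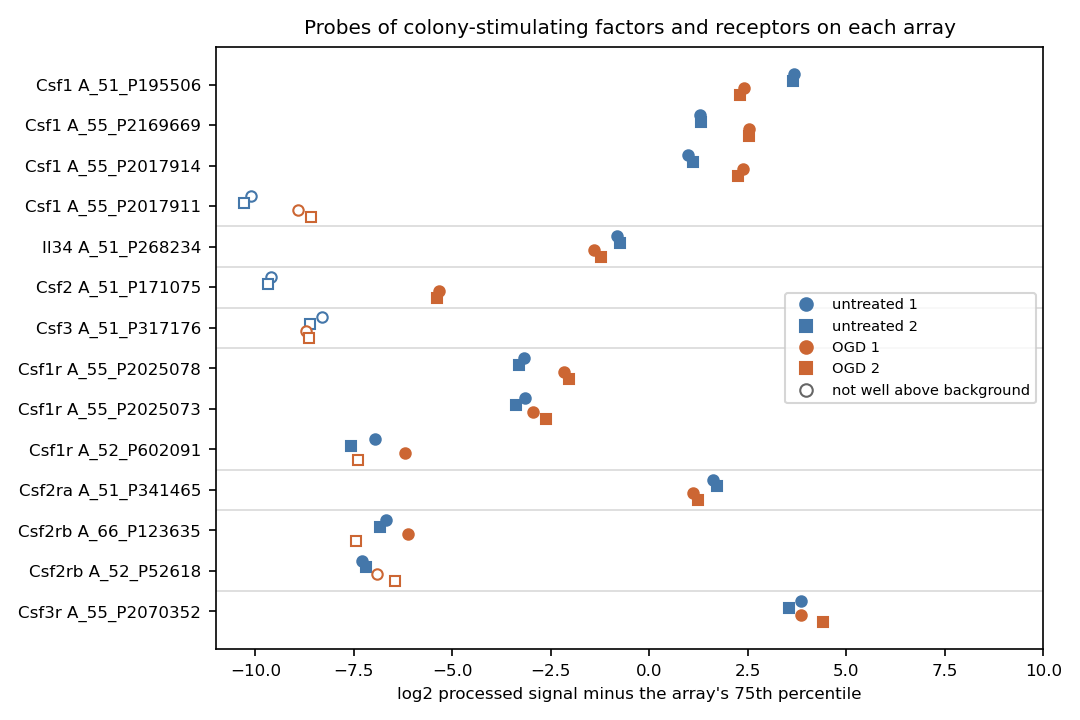
Normalized log2 signal (horizontal axis, log2 processed signal minus the array's 75th percentile) of the 14 probes of the 8 genes on each of the 4 arrays, with open symbols where the probe was not well above background. Levels of different probes are not comparable with each other. The *Csf2* probe was filled only after OGD, and the *Csf1* probes moved in opposite directions relative to the percentile, though not on the spike-in scale.

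*Csf1* encodes the main growth factor for microglia and macrophages, and its probes disagreed. The brightest, A_51_P195506, was designed to NM_007778 and lies on chromosome 3 of mm9, from 107544333 to 107544392 on the minus strand. Its processed signal was 27306 and 27180 in untreated AECs and 4707 and 3804 after OGD. Both OGD arrays were far below both untreated arrays, and the 10 repeat spots of the probe were at 25354 or more on each untreated array and at 5102 or less on each OGD array. The normalized log2 signal fell from 3.66 ± 0.019 (SD, n = 2) to 2.35 ± 0.082 (SD, n = 2). The log2 fold change was −1.31 (SE 0.085, adjusted p = 0.00136), a level 2.49-fold lower, and −2.60 on the spike-in scale.

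Farther upstream in *Csf1*, A_55_P2169669, designed to NM_001113530 and lying from 107548521 to 107548580, read 5182 and 5334 in untreated AECs and 5138 and 4469 after OGD. Its signal was thus close on all arrays while the 75th percentile of the arrays dropped. Relative to that percentile its log2 fold change was 1.24 (SE 0.074, adjusted p = 0.0012), a level 2.36-fold higher, whereas on the spike-in scale it was −0.049. The overlapping probe A_55_P2017914, from 107548550 to 107548609, read 4209 and 4654 against 4642 and 3710 and gave 1.28 (SE 0.099, adjusted p = 0.00176), or −0.0079 on the spike-in scale. Since the probes share bases, they are not separate evidence. A further probe, A_55_P2017911, designed to ENSMUST00000120654.7, read between 1.73 and 2.00 on the 4 arrays and was not well above background on any.

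Subtracting a constant from an array, as the percentile and spike-in scalings do, leaves the gap between the upstream and the downstream reading of that array as it is. Within an array, the log2 signal of A_55_P2169669 minus that of A_51_P195506 was −2.40 and −2.35 in untreated AECs and 0.13 and 0.23 after OGD. The groups were far apart, and the change between them was 2.55, against a replicate SD of 0.058. It was 2.48 with normexp and 2.78 with quantile normalization, which change probes of one array unequally. In a limma diffSplice test, which compares each probe of a gene with the gene's other probes and was chosen after the data had been seen, *Csf1* passed with an adjusted p of 2.36e-06. The test treats overlapping probes, and probes read on the same arrays, as independent, so its p-values for *Csf1* can be too small. In that test 48.7% of the 5578 genes with at least 2 tested probes passed. By probe, the log2 fold change of A_51_P195506 minus that of the gene's other probes was −2.57 (adjusted p = 1.37e-06), rank 44 of 12732 probes by p, where 45.1% passed. The inner ends of A_55_P2169669 and A_51_P195506 lie 4129 bases apart. Among the 2787 genes whose outermost tested probes lie over 2000 bases apart, the upstream probe minus the downstream probe had a median log2 difference of 0.60. *Csf1* was at 2.59 by the same measure, and 172 of the genes (6.17%) were at or above it. Transcripts of *Csf1* are known to end in different terminal exons, and which transcripts each probe bound in these cultures was not tested. No annotation of mm9 was used here, so exons and UTRs are not assigned to the probes.

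**Figure D2:**
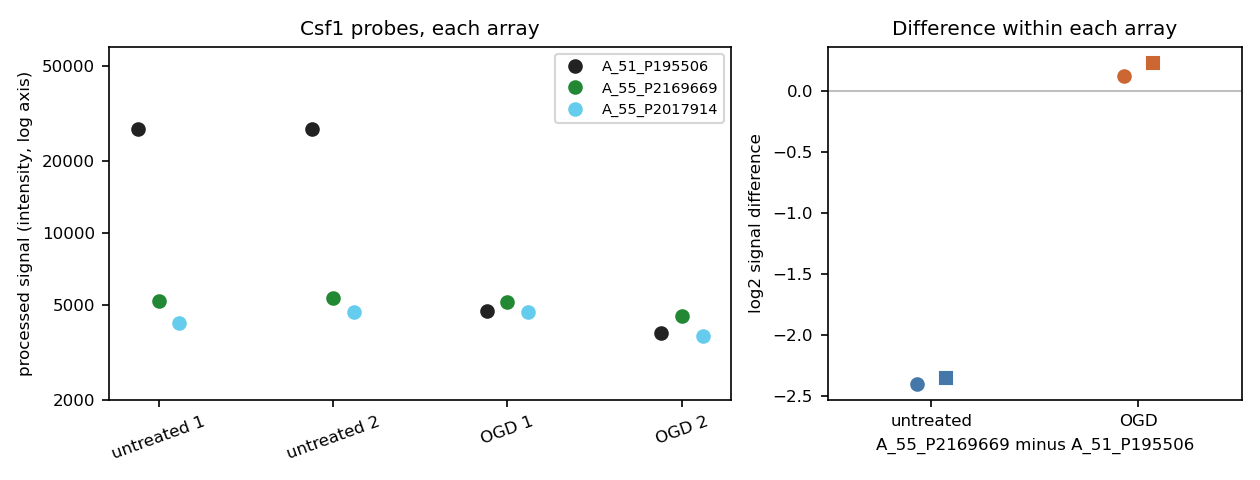
Left, processed signal (log axis) of the 3 *Csf1* probes that were tested, on each array. Right, the log2 signal of the upstream probe A_55_P2169669 minus that of the downstream probe A_51_P195506 within each array (circles, replicate 1; squares, replicate 2), which was −2.40 and −2.35 in untreated AECs and 0.13 and 0.23 after OGD.

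*Il34* encodes the second ligand of CSF1R, which neurons and skin cells are known to make. Its only probe, A_51_P268234 (NM_029646, chromosome 8 of mm9, 113265835 to 113265894, minus strand), read 1214 and 1284 in untreated AECs and 338 and 330 after OGD. The OGD arrays were both lower. The normalized log2 signal was −0.78 ± 0.043 (SD, n = 2) and −1.31 ± 0.11 (SD, n = 2), a log2 fold change of −0.53 (SE 0.096, adjusted p = 0.0126). The level was 1.44-fold lower, and the log2 fold change was −1.82 on the spike-in scale. The direction stayed the same in every alternative run. The call did not, as the adjusted p was 0.0541 by the methods' t-test, 0.0754 without untreated replicate 1 and 0.0961 without untreated replicate 2.

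*Csf2* encodes GM-CSF, a cytokine that activates macrophages, granulocytes and microglia. Its only probe, A_51_P171075 (NM_009969), is repeated in 10 spots per array, and the design places 28 bases of it on chromosome 11 of mm9, from 54060772 to 54060799 on the minus strand. The mean signal of these spots was 2.75 and 2.64 in untreated AECs and 21.8 and 18.5 after OGD. In untreated AECs 1 of 10 spots was marked as well above background on each array, and after OGD 10 and 9 of 10. With outlier spots left out, the highest spot of the untreated arrays was at 6.46, and the lowest spot of the OGD arrays at 8.41, so the spots did not overlap. With the outlier spots counted, the highest untreated spot was at 11.3.

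*Csf2* was therefore read above background only after OGD, and its signal there was low, since the dimmest probes marked well above background on these arrays were at 6.33 to 7.34. On the normalized log2 scale, untreated AECs were at −9.64 ± 0.055 (SD, n = 2), below background, and OGD arrays at −5.37 ± 0.032 (SD, n = 2). For such a probe, a bound was taken by setting the mean of the OGD arrays against the dimmest signal that still counted as above background in untreated AECs. By this bound *Csf2* was 7.65-fold higher after OGD relative to the 75th percentile, and 3.13-fold higher on the spike-in scale. The bound is not a strict minimum, since a probe can read above the dimmest passing signal without passing itself. *Cldn5* read 7.42 on untreated 1 and did not pass, while the dimmest probe that did was at 7.34. The fitted log2 fold change, which is no bound, was 4.27 (SE 0.081, adjusted p = 0.000729). It was 2.98 on the spike-in scale and 1.67 with normexp background correction, the latter smaller than the percentile bound of 2.93 on the log2 scale, and it kept its direction and its call in each alternative that tested it.

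*Csf3* encodes G-CSF, which drives the production of neutrophils. Its probe A_51_P317176 (NM_009971, chromosome 11 of mm9, 98564614 to 98564673) read 6.76 and 5.54 in untreated AECs and 2.11 and 1.96 after OGD. None of these was well above background (0 of 4 arrays), so that neither a level nor a change of *Csf3* was detectable on these arrays.

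Among the receptors, *Csf1r* is the target of the inhibitor that all cultures had received. Its brightest probe, A_55_P2025078 (NM_001037859), read 235 and 220 in untreated AECs and 198 and 190 after OGD. The raw signals of the groups lay close together, with both OGD arrays slightly lower. Relative to the 75th percentile the normalized log2 signal was −3.24 ± 0.084 (SD, n = 2) and −2.10 ± 0.093 (SD, n = 2), so that the log2 fold change was 1.14 (SE 0.098, adjusted p = 0.00212), whereas on the spike-in scale it was −0.15 (adjusted p = 0.241). The next probe, A_55_P2025073, read 241 and 206 against 115 and 126, with a log2 fold change of 0.49 (SE 0.16, adjusted p = 0.0633). On the spike-in scale it was called lower, at −0.80 (adjusted p = 0.00459). It was called higher with normexp (0.62, adjusted p = 0.00235), median scaling (0.50, adjusted p = 0.0283), quantile normalization (0.57, adjusted p = 0.0299) and without OGD replicate 1 (0.65, adjusted p = 0.0338). At an unchanged 0.49 it was also called with limma's trend and robust prior (adjusted p = 0.0389) and with the filter for all arrays (adjusted p = 0.0464), so its direction was not settled. The dimmest probe, A_52_P602091, read 17.0 and 11.4 against 12.1 and 4.59, the last of which was not well above background, and gave 0.48 (SE 0.49, adjusted p = 0.440), or −0.13 without OGD replicate 1. With normexp it was called, at 1.098 (adjusted p = 4.76e-05), and on the spike-in scale it was at −0.81 (adjusted p = 0.144). The 3 probes were not shown to differ from each other (diffSplice adjusted p = 0.475).

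Markers of microglia were read beside *Csf1r*, because microglia are the cells of the brain best known to express it. Of 22 markers, 12 passed the background mark on every array, and 3 (*P2ry13*, *Spi1* and *Laptm5*) on none. Among the defining markers, *Aif1* read 55.6 and 55.0 in untreated AECs and 46.8 and 40.7 after OGD, a log2 fold change of 1.03 (adjusted p = 0.00161) relative to the percentile and −0.26 on the spike-in scale. *P2ry12* read 19.5 and 21.5 against 9.97 and 8.04, with 0.18 and −1.11 on these scales. *Cx3cr1* read 13.8 and 11.1 against 5.51 and 2.79, and *Ptprc* 10.5 and 11.7 against 4.21 and 7.11, and both genes were not well above background after OGD. *Tmem119* read 150 and 162 against 38.5 and 27.9, with −0.88 and −2.17, and *Itgam* 3328 and 2726 against 1376 and 1015, with 0.023 and −1.26. *Cd68* and *Fcgr3*, named after their values were seen, had higher raw signals after OGD. *Cd68*, a lysosomal protein of phagocytes, read 1157 and 1213 against 4301 and 3778, a log2 fold change of 3.14 (adjusted p = 0.000729) and 1.85 on the spike-in scale. *Fcgr3*, an Fc receptor, read 10.3 and 11.0 against 12.5 and 13.8, with 1.68 (adjusted p = 0.00212) and 0.39. The summed signal of the markers was 20756 to 22737 in untreated AECs and 11574 to 13901 after OGD. By limma 6 of the 18 markers tested were higher, 4 lower and 8 neither, with a median log2 fold change of 0.10, beside 37.9% higher, 27.1% lower and a median of 0.18 over all probes. On the spike-in scale 1 marker was higher and 15 lower, with a median of −1.19, beside 4.47% higher, 81.9% lower and a median of −1.11 over all probes. Of the defining markers named, *Aif1*, *P2ry12*, *Tmem119* and *Itgam* passed the background mark on each of the 4 arrays, and the part of remaining microglia in the *Csf1r* signal was not tested.

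*Csf2ra* encodes the chain that binds GM-CSF. Its probe A_51_P341465 (NM_009970, chromosome 19 of mm9, 61300336 to 61300395, minus strand) read 6580 and 7126 in untreated AECs and 1896 and 1820 after OGD. Both OGD arrays were lower, and the normalized log2 signal went from 1.67 ± 0.068 (SD, n = 2) to 1.16 ± 0.094 (SD, n = 2). The log2 fold change was −0.51 (SE 0.095, adjusted p = 0.0132), a level 1.42-fold lower, and −1.80 on the spike-in scale. As with *Il34*, the direction held in every alternative run, while the adjusted p was 0.0533 by the methods' t-test, 0.0708 without untreated replicate 1 and 0.102 without untreated replicate 2.

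*Csf2rb* encodes the signaling chain that pairs with CSF2RA. Its brighter probe, A_66_P123635 (NM_001358854, chromosome 15 of mm9, 78179504 to 78179563), read 20.6 and 19.0 in untreated AECs and 12.6 and 4.49 after OGD, the last below background. The OGD arrays lay on either side of the untreated ones once scaled, and the log2 fold change was −0.024 (SE 0.48, adjusted p = 0.968), with a 95% interval of −1.37 to 1.32. Its sign was not stable, as the log2 fold change was −0.67 without OGD replicate 1 and 0.62 without OGD replicate 2. It was 0.045 without untreated replicate 1 and −0.093 without untreated replicate 2. The other probe, A_52_P52618 (78181168 to 78181227), read 13.5 and 14.7 against 7.34 and 8.78 and was not well above background after OGD. It therefore has no measured level after OGD, only an upper limit, and no fold is given for it here. The test on its fitted values missed the limit (adjusted p = 0.0591), and other settings called it higher (normexp, adjusted p = 3.27e-05; without OGD replicate 1, adjusted p = 0.00970; median scaling, adjusted p = 0.0311) or lower (spike-in scaling, adjusted p = 0.0125). The brighter probe was also called in both directions, at 1.06 with normexp (adjusted p = 3.55e-05) and −1.31 on the spike-in scale (adjusted p = 0.0389). The direction of *Csf2rb* was not settled at this signal. GM-CSF receptor transcripts were thus read clearly above background on every array for the alpha chain only, among the 2 chains.

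*Csf3r* encodes the receptor for G-CSF. Its probe A_55_P2070352 (NM_007782, chromosome 4 of mm9, 125721478 to 125721537) read 30741 and 25125 in untreated AECs and 12891 and 16562 after OGD. The raw signals of the OGD arrays were lower, but relative to the 75th percentile the log2 fold change was 0.45 (SE 0.24, adjusted p = 0.177), with a 95% interval of −0.23 to 1.12. It was −0.13 with quantile normalization, 0.49 (adjusted p = 0.0262) with normexp and −0.84 (adjusted p = 0.0134) on the spike-in scale, and 0.72 (adjusted p = 0.0403) without OGD replicate 1, so no direction is given for it.

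The *Csf3r* probe also differs from the other member probes in its sequence. It holds a run of at least 15 bases found in 10 probes of other gene names, up to the 30 bases printed above. Of all probes, 27.5% share such a run with at least 1 probe of another gene name, but 1.72% with 10 or more, and the other member probes did so with 0 or 1. Bases of that kind are known from short interspersed repeats of the mouse genome. In the RefSeq promoter windows, 30 of 32851 hold a run of 15 bases of this probe on either strand, against 0 to 4 for the other member probes. The probe of TC1653005 read 41951 and 36622 in untreated AECs and 21318 and 28961 after OGD. *Slc10a1*, singled out after its values were seen, has a probe with a shared run of 18 bases that read 123953 and 100712 against 69518 and 64331, while its other probe was not well above background on any array. The 10 probes ranged in mean untreated signal from 4.78 to 112333, and 9 were tested, with log2 fold changes from −1.31 to 0.72. The sequence is thus not particular to *Csf3r*, and how much of the signal came from *Csf3r* transcripts was not tested. Of 9 neutrophil markers, the cells that *Csf3r* is best known from, 6, among them *S100a8* and *S100a9*, were not well above background on any array. *Elane*, at 154 and 123 against 79.3 and 75.1, and *Camp*, at 75.4 and 66.2 against 23.4 and 24.9, passed the background mark on each array and are likewise named after their values were seen. The summed signal of the 9 was 214 to 260 in untreated AECs and 120 to 127 after OGD.

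**Figure D3:**
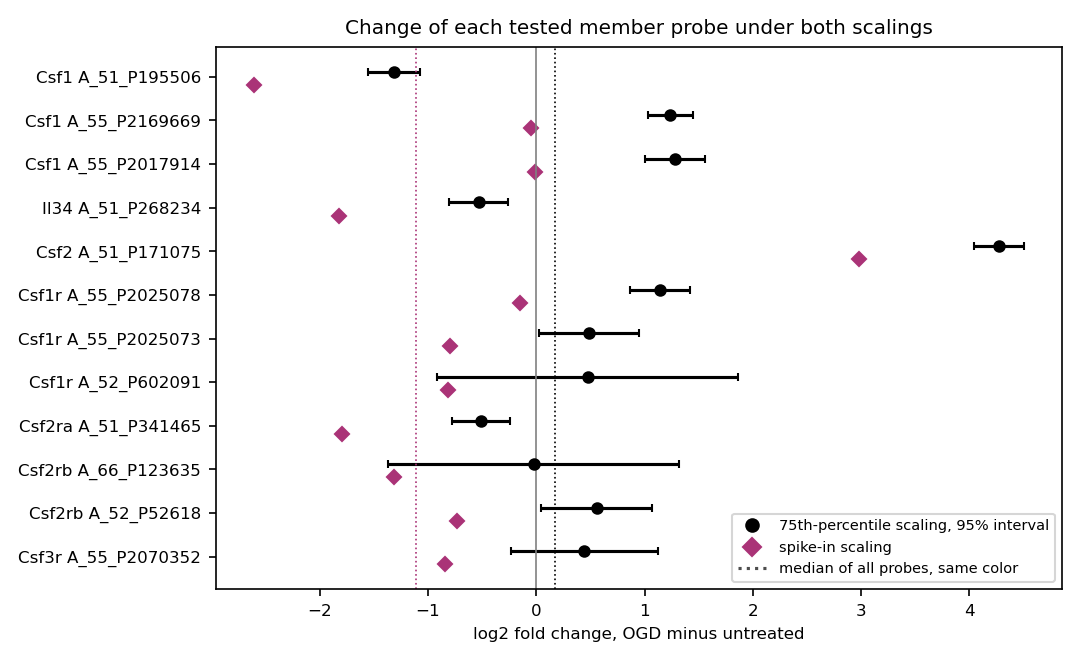
Log2 fold change (OGD minus untreated) of the 12 tested probes with the 95% interval from limma under 75th-percentile scaling (black circles), and the value under spike-in scaling (diamonds). Dotted lines mark the median of all tested probes on each scale, 0.18 and −1.11. *Csf2* was below background in untreated AECs and *Csf2rb* A_52_P52618 after OGD, so their points are fitted values and not measured folds. *Csf2* lay above 0 on both scales, and the upstream *Csf1* probes and the brightest *Csf1r* probe lay above 0 on the percentile scale and close to 0 on the spike-in scale.

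The genes around these receptors were read from 5 lists with 77 genes, of which 74 were tested, 34 higher and 20 lower by limma, to be read beside the 37.9% and 27.1% of all probes. Counts on the spike-in scale are to be read beside the 4.47% of all probes that were higher and the 81.9% that were lower there. In the related cytokines and receptors, *Il3*, *Il5* and *Il5ra* were too dim to be tested, while *Il3ra*, the interleukin-3 binding chain that pairs with CSF2RB, read 4429 and 4554 in untreated AECs and 2604 and 2335 after OGD. Its log2 fold change was 0.51 (SE 0.075, adjusted p = 0.00730), and −0.78 on the spike-in scale. *Ptprz1* and *Sdc1*, a phosphatase and a proteoglycan to which IL34 is known to bind, were at 0.95 (SE 0.076, adjusted p = 0.00189) and 0.70 (SE 0.076, adjusted p = 0.00345), or −0.34 and −0.59 on the spike-in scale. *Csf2rb2*, the beta chain used by the mouse interleukin-3 receptor, read 15.7 and 8.05 against 2.25 and 1.61 and was not well above background after OGD, so that no fold is given (adjusted p = 0.0552). Thus 3 of the 4 tested genes of the list were called higher and 0 lower relative to the percentile, while on the spike-in scale 0 were higher and 4 lower.

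Of 24 signal transducers of these receptors, 7 were higher, 9 lower and 8 neither, with a median log2 fold change of −0.22. *Gab2*, a docking protein for phosphatidylinositol 3-kinase and the phosphatase SHP2, read 54.8 and 55.5 in untreated AECs and 200.5 and 187 after OGD. Its log2 fold change was 3.18 (SE 0.081, adjusted p = 0.000729), and 1.90 on the spike-in scale. *Stat3*, through which CSF3R signals, was at 0.78 (SE 0.12, adjusted p = 0.00811), but −0.50 on the spike-in scale. The kinase gene *Tyk2* was at −1.82 (SE 0.14, adjusted p = 0.00175) and *Sos1*, which couples receptors to Ras, at −1.69 (SE 0.078, adjusted p = 0.000868). On the spike-in scale 1 gene of the list was higher and 23 lower, where 81.9% of all probes were lower.

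Among 11 inhibitors of this signaling, 2 were higher, 6 lower and 3 neither, with a median log2 fold change of −0.49, and on the spike-in scale 0 were higher and 10 lower (all probes, 4.47% and 81.9%). *Socs3*, which blocks signaling by CSF3R, read 13469 and 14316 in untreated AECs and 1020 and 1163 after OGD, a log2 fold change of −2.30 (SE 0.16, adjusted p = 0.00147). The phosphatase gene *Ptpn1* was at −1.73 (SE 0.18, adjusted p = 0.00314). The adaptor genes *Dok1* and *Sh2b3* were at 1.06 (SE 0.13, adjusted p = 0.00460) and 0.88 (SE 0.083, adjusted p = 0.00256), or −0.23 and −0.41 on the spike-in scale.

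The mRNA of *Csf2* is a known example of one that is held short-lived by AU-rich elements. Of 11 regulators of such mRNAs, 5 were higher, 3 lower and 3 neither, with a median log2 fold change of 0.27, and on the spike-in scale 0 were higher and 9 lower, again beside 4.47% and 81.9% of all probes. *Hnrnpd* was at 1.23 (SE 0.075, adjusted p = 0.00123), or −0.062 on the spike-in scale, and *Rc3h1* at −0.36 (SE 0.10, adjusted p = 0.0445). Relative to the percentile, the probes of *Tial1* disagreed, at 1.06 for the brightest (adjusted p = 0.00184, or −0.22 on the spike-in scale) and −0.89 for the other. Those of *Tia1* also did, at −0.84 for the brightest (adjusted p = 0.0112, or −2.13 on the spike-in scale) with a range of −1.17 to 0.91. On the spike-in scale, which moved every probe by −1.29, all of these probes had negative values.

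Of 24 transcription factors known at *Csf* promoters, 17 were higher, 2 lower and 5 neither, with a median log2 fold change of 0.79, and on the spike-in scale 8 were higher and 15 lower, beside the same 4.47% and 81.9%. *Fosb*, a subunit of AP-1, read 85.3 and 76.0 in untreated AECs and 1077 and 1189 after OGD, and its log2 fold change was 5.19 (SE 0.16, adjusted p = 0.000729). *Fos*, another subunit, read 2195 and 2199 against 8340 and 7912, with 3.26 (SE 0.085, adjusted p = 0.000729). Both stayed above 0 on the spike-in scale, at 3.90 and 1.97. Among the NFAT factors, *Nfatc1* was at −2.01 (SE 0.082, adjusted p = 0.000775), with its other probe at 0.30, and *Nfatc3* at −0.73 (SE 0.13, adjusted p = 0.0119), with probes from −0.84 to 0.27. Of the others, named after their values were seen, *Nfatc2* was at 0.086 for its brightest probe (adjusted p = 0.450) and *Nfatc4* at −0.092 (adjusted p = 0.439). The other *Nfatc2* probe had a fitted value of 5.96, but its signal in each group is not given here. Relative to the percentile, the brightest NFAT probes thus had no common direction. On the spike-in scale they were at −3.30 (*Nfatc1*), −1.20 (*Nfatc2*), −2.02 (*Nfatc3*) and −1.38 (*Nfatc4*), where 81.9% of all probes were lower.

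**Figure D4:**
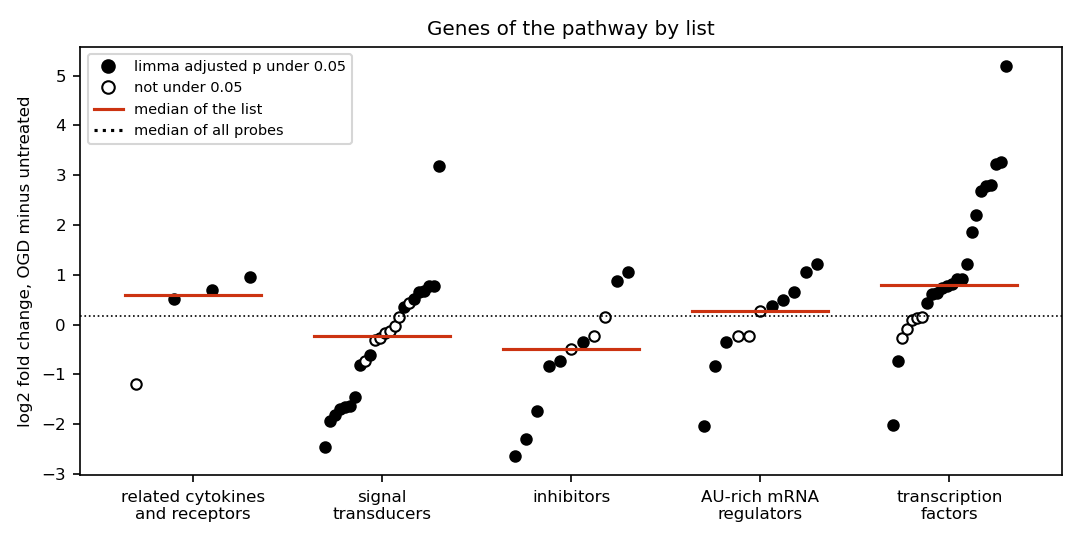
Log2 fold change (vertical axis, OGD minus untreated, 75th-percentile scaling) of the 74 tested genes of the 5 lists, 1 point per gene, sorted within each list. Filled points passed a limma adjusted p of 0.05, red lines are list medians (0.60, −0.22, −0.49, 0.27 and 0.79) and the dotted line is the median of all tested probes, 0.18.

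The genes most like each member were found from the normalized log2 signal on the 4 arrays after each probe's mean was subtracted. Over so few arrays a short distance mainly means a similar fold change. For *Csf2*, whose untreated values were below background, a distance has no defined value, and *Tbl2*, *Trib3* and *Areg*, which the processed values placed nearest, are given by name only. For the downstream *Csf1* probe they were *Mtus1*, *1700010I14Rik* and *Pstk*, for *Il34* *Lrfn3*, *Tm9sf4* and *Ppp2r2b*, and for *Csf2ra* *Nrbf2*, *Helq* and *Ino80e*, all at distances of 0.011 to 0.023. *Serf2*, *Clec3b* and *Zfp292* were nearest to *Csf1r*, *Shc2*, *Crem* and *Gm2042* to *Csf2rb*, and *Hsbp1l1*, *4833412C15Rik* and *Cir1* to *Csf3r*, at distances from 0.029 to 0.12. The values of *Csf2rb* include 1 OGD array below background.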

How the data were processed

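The authors extracted total RNA, labeled it with Cy3 and processed the scanned arrays with Feature Extraction (version 11.5.1.1 in the submitters' processing notes). They deposited the processed signal, an intensity per spot after background subtraction by that software, without normalization between arrays. The table of the whole series held the same signal (largest difference 0). Probe positions are on mm9, and gene names are those of the array design.

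From the deposited intensity, log2 was taken, control and outlier spots (119 to 132 per array) were dropped, spots of a probe were averaged, and each array's 75th percentile was subtracted. A probe was well above background if a share of at least 0.5 of its spots was marked so. Groups, taken from the labels, were compared with limma 3.58.1 in R 4.3.3 over the 28258 probes that passed this mark on the 2 arrays of a group, in either group, with Benjamini–Hochberg adjustment, after 11 probes without a value on either array of a group were left out. A value missing on 1 array of a group, which was the case for no member probe, was fitted from the other array. The gene value is that of the brightest probe over 4 arrays. The smallest p of an exact permutation test with 2 against 2 arrays is 0.333, so none was used. The limma p-values rest on the spread between arrays of a group, moderated by that of all tested probes, and cover only these samples. The number of arrays limits the precision. Pathway lists, markers and the rule for named genes (all members, and in each list the 2 largest increases and decreases called and well above background on all arrays) were chosen, as were the members, with earlier results of these data known. The 3 nearest genes of each member were taken by Euclidean distance. The alternatives were the methods' t-test (BH adjusted), limma with a trend and robust prior, a replicate block, normexp (offset 50), quantile, median, spike-in and other percentile scaling, other filters, outliers kept, the series table, a mean over all probes of a gene, and leaving out each array. The probe comparison within genes (diffSplice) and the *Csf2* bound on the spike-in scale were chosen after seeing the data. RefSeq promoter windows were used for counts of shared runs only. Scripts were tested on simulated data. Counts and plots were made with pandas 2.3.3, numpy 2.4.6 and matplotlib 3.10.9 in Python 3.11.15.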

Additional observations from a re-analysis of the deposited data

How the results depend on the processing

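Precision was limited by 2 arrays per group and, for *Csf2*, *Csf2rb* and the dimmest *Csf1r* probe, by signal near background. Spike-in scaling gave −0.049 and −0.0079 for the upstream *Csf1* probes, −0.15, −0.80 and −0.81 for the *Csf1r* probes A_55_P2025078, A_55_P2025073 and A_52_P602091, −1.31 and −0.73 for the *Csf2rb* probes A_66_P123635 and A_52_P52618 (the latter fitted to values below background after OGD), and −0.84 for *Csf3r*. With quantile normalization *Csf3r* was at −0.13, and with normexp it was at 0.49 and *Csf2rb* at 1.06. The mean over a gene's probes gave 0.40 for *Csf1*, a call in the opposite direction (adjusted p = 0.0162), and 0.27 for *Csf2rb*. By the methods' t-test, *Il34* (−0.53) and *Csf2ra* (−0.51) missed the limit. The *Csf1* probe difference was 2.48 with normexp and 2.78 with quantile normalization. The causes of these differences were not tested.

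With each array left out in turn, log2 fold changes ranged from −1.37 to −1.26 for the downstream *Csf1* probe, −0.61 to −0.45 for *Il34*, −0.58 to −0.44 for *Csf2ra*, −0.67 to 0.62 for *Csf2rb*, 0.17 to 0.72 for *Csf3r*, 1.08 to 1.21 for *Csf1r* and 4.23 to 4.31 for *Csf2*, and A_52_P602091 was at −0.13 without OGD replicate 1. The members called ranged from 2 to 3 higher and 1 to 4 lower (1 lower without either untreated replicate), the pathway genes from 22 to 34 higher and 12 to 23 lower, and all probes from 5879 to 11023 higher and 4823 to 8142 lower.

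Members called higher numbered 4 with normexp, 1 with spike-in scaling, 1 with the filter for all arrays, which removes *Csf2*, and 1 with the 10-fold limit (*Csf2* by its fitted value, its bound being 7.65-fold). Members called lower numbered 1 by the t-test (2 higher), 5 with spike-in scaling and 0 with the 10-fold limit. Pathway genes called higher numbered 9 with spike-in scaling, and those called lower 13 by the t-test, 31 with the percentile over bright probes and 61 with spike-in scaling. Over all probes, 17757 were higher with normexp, 1262 with spike-in scaling and 229 with the 10-fold limit, and 23155 were lower with spike-in scaling and 148 with the 10-fold limit.

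Across probes, deviations of same-numbered arrays correlated at −0.057. With so few arrays per group, this value cannot show whether same-numbered arrays were paired. The labels do not state a pairing. With the replicate number as a block, *Csf2rb* probe A_52_P52618 passed the limit (adjusted p = 0.0460), though it was below background after OGD, and the block changed no other call of a member probe, with log2 fold changes such as 4.27 for *Csf2* and 1.14 for *Csf1r*.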
